A study of Trichoderma reesei with 15 samples.

Results

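The strain lacking pph5 was set against the strain it was made from, in mycelium of the cellulase-producing fungus Trichoderma reesei. The comparison holds 5 of the 15 RNA sequencing libraries of the series, chosen by their titles: 3 of the deletion strain QM6aΔmus53Δpph5 (Δpph5) and 2 of the parent QM6aΔmus53, all tagged DD1. Both strains also lack mus53, a gene of the end-joining pathway of DNA repair whose loss eases gene replacement, so the parent is not an unmodified QM6a. All cultures were held at 28 °C for 96 h without light, with cellulose as the carbon source. Libraries of 3 other groups enter the fits or are given beside the results: 4 of the pph5-2 deletion and 2 of the parent with the tag DD3, and 4 of the pp2A deletion with the tag DD1. The cell line and source name of the Δpph5-2 libraries name the pph5 strain, so those were grouped by title and type. The sources used here do not say what the tags mean, whether a strain is 1 or several transformants, or whether replicates are separate cultures. The p-values therefore measure the spread between these libraries, which may be technical.

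The series title names the deleted genes as protein phosphatases and asks about their role in cellulase regulation. Protein phosphatases remove phosphate groups that kinases have put on proteins, and so reset signalling pathways and the activity of transcription factors. In fungi that live on plant material, phosphorylation takes part in the control of carbon catabolite repression and of the regulators that switch cellulase genes on.

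Library totals were 9842288, 6026511 and 8496557 counts for Δpph5 replicates 1, 2 and 3, against 9310996 and 9906943 for parent replicates 1 and 2. Levels below are counts scaled to a common library size by the TMM method (CPM), and 8912 genes passed the filter on low counts. The table pairs its systematic identifiers with no gene names, and 0 of the 10879 identifiers matched the reference gene table, so no cellulase, regulator or marker of conidia or hyphae can be named, and the label mycelium could not be checked against markers. The 3 entries with gene names, mat1-1-1, mat1-1-2 and mat1-1-3 of the mating type locus that QM6a does not carry, had 0 counts in all 15 libraries. In bulk RNA, fewer cells of a type and less RNA per cell cannot be told apart.

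TrE1020W was the single gene that met the rule for a deleted gene, namely at least 5 CPM on average in parent libraries, under 5% of that level left in the deletion and no overlap of libraries. It had 0, 0 and 0 counts in Δpph5 replicates 1, 2 and 3, against 973 and 1308 counts in parent replicates 1 and 2. The gene is listed with a length of 1818 bases, with no annotated role. Set against a floor of 3 counts over the Δpph5 group, the level was at least 961-fold lower in Δpph5 (edgeR's quasi-likelihood test, adjusted p = 8.19e-11). All 12 libraries outside Δpph5 held it at 104.5 to 147 CPM of the library total, without TMM scaling. The 3 Δpph5 libraries thus shared a count of 0 for this transcript, whatever else differed among them. That TrE1020W is pph5 is not stated in the files, and the gene was found by its values, so the test is given as a description. With only the 5 libraries in the fit, the edgeR adjusted p was 0.354.

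The 3 Δpph5 libraries did not form a group of their own. Across genes, Δpph5 replicate 2 correlated best with parent replicate 1 (r = 0.976), Δpph5 replicate 1 with Δpph5-2 replicate 2 (r = 0.975), and Δpph5 replicate 3 with Δpph5 replicate 2 (r = 0.976), as a description over genes, which are not independent. To place them, each library was given a score along the main axis of difference among replicates, and this axis was taken only from the 10 libraries outside the comparison. The Δpph5 libraries scored -13.4, 68.2 and 58.8 for replicates 1, 2 and 3, and the parent libraries 59.9 and -19.1 for replicates 1 and 2. Δpph5 replicates 2 and 3 thus lay beside parent replicate 1, and Δpph5 replicate 1 beside parent replicate 2. The mean score was 37.8 ± 44.7 in Δpph5 (SD, n = 3) and 20.4 ± 55.8 in the parent (SD, n = 2).

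**Figure D1:**
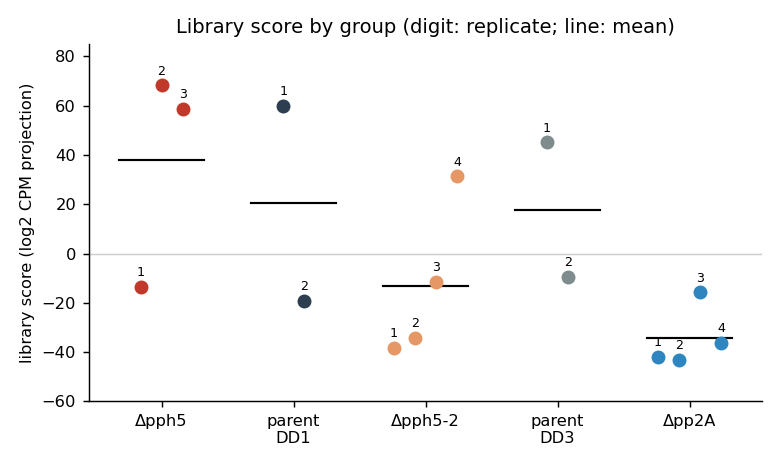
Library score (vertical axis, projection of log2 CPM on the axis of difference among replicates of the Δpph5-2, DD3 parent and Δpp2A groups) for each library, with the group on the horizontal axis, a digit for the replicate and a line for the group mean. Δpph5 and its parent each hold libraries at both ends, from -13.4 to 68.2 in Δpph5 and from -19.1 to 59.9 in the parent.

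Many genes that were low in Δpph5 replicate 1 were also low in parent replicate 2. In 401 genes, Δpph5 replicate 1 was more than 4-fold below both other Δpph5 replicates. In 394 of these (98.3%) parent replicate 2 was also below parent replicate 1, and in 326 (81.3%) more than 4-fold, against 6.65% of all genes tested. In the reverse direction, 45 genes were more than 4-fold higher in Δpph5 replicate 1 than in both others. In 26 of these (57.8%) parent replicate 2 was above parent replicate 1, near the 49.8% of all genes tested, and in 4 (8.89%) more than 4-fold, against 1.35% of all genes tested. The score took up 44.9% of the sum of squares within the groups of these 5 libraries. Its axis came from other libraries, but these include the DD3 parents. Those correlated with the same-numbered DD1 parents at 0.972 and 0.985 across genes, so the axis may not be independent of these 5 libraries. On another base, the difference between the strain means made up 15.01% of the total sum of squares of these 5 libraries. Means of so few libraries also differ where strain has no effect, so this share is not the size of a strain effect.

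Set against this spread, most differences between the strains were small. The typical gene spanned a 1.54-fold range within Δpph5 and a 1.35-fold range within the parent, while the strain means lay 1.14-fold apart (medians over the genes tested, log2 CPM with a prior count of 2). In 8424 of 8912 genes (94.5%) the range within at least 1 strain exceeded the difference between the means. A range widens with the number of libraries, so the ranges above do not compare the spread of the strains. It also often exceeds a difference of means where strain has no effect, so this share depends on the measure. No gene other than TrE1020W passed the edgeR test at an adjusted p under 0.05, so 0.0112% of the genes tested were called. Before adjustment, 573 genes had a p under 0.05, 263 of them higher and 310 lower in Δpph5, where uniform p-values would give 445.6. These counts varied with single libraries. Without Δpph5 replicate 2 the test called 6 genes and without parent replicate 2 it called 4. The number with an unadjusted p under 0.05 was 1322 without Δpph5 replicate 1 and 1950 without parent replicate 1. DESeq2 called 26 genes, 15 higher and 11 lower.

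What the libraries do set is an upper limit for many genes. In 5432 genes (61.0%) the 95% interval of the fold change lay wholly within 2-fold in either direction, and in 7460 (83.7%) within 4-fold. These intervals are for each gene alone and are not adjusted for the number of genes. They also use the spread of all 15 libraries. With only the 5 libraries in the fit, the share within 2-fold was 49.8%. The median half-width of an interval was 1.46-fold. At the other end, the interval reached past 2-fold both upward and downward in 1184 genes (13.3%), for which the data give no direction at this size. It lay wholly beyond 2-fold in 25 genes, of which TrE1020W alone was called.

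How narrow the interval was differed with the level of the gene and with the library score. Among genes with a mean under 1 CPM, 0 of 468 had an interval within 2-fold, and among those at 1 to 10 CPM 20.5% of 1756 had one. The share was 75.3% of 4315 genes at 10 to 100 CPM and 78.5% of 2232 genes at 100 to 1000 CPM. It was lower again, 50.4% of 141 genes, over 1000 CPM, where the typical gene spanned a 1.67-fold range within Δpph5, against 1.35-fold at 100 to 1000 CPM. Ordered by how strongly genes followed the score, the interval lay within 2-fold in 84.9% of the fifth that followed it least and in 8.53% of the fifth that followed it most.

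**Figure D2:**
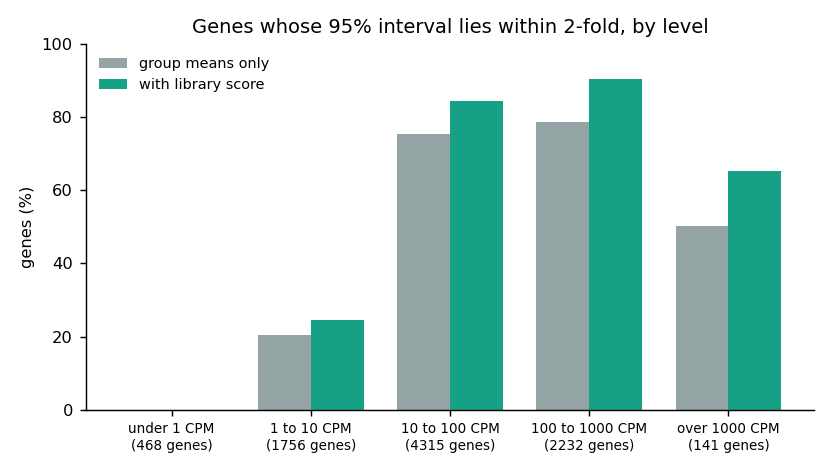
Percentage of genes (vertical axis) whose 95% interval for the fold change of Δpph5 over its parent lay within 2-fold in either direction, by class of mean level in CPM (horizontal axis, number of genes in brackets), from the fit of group means only (grey) and with the library score added (green). The green bars are higher in the 4 classes above 1 CPM, up to 90.3% at 100 to 1000 CPM, and both are at 0 under 1 CPM.

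The 100 most abundant genes, ranked on the mean of all libraries, took shares of the counts that overlapped between the strains. They held 24.3 ± 0.655% of the counts in Δpph5 (SD, n = 3) and 24.6 ± 0.261% in the parent (SD, n = 2). The Δpph5 libraries spanned 23.6 to 24.9% and the parent libraries 24.4 to 24.8%, so the groups overlapped (two-sided exact permutation test, p = 0.8, where 3 against 2 libraries cannot give less than 0.2). edgeR called 0 of the 100, against 0.0112% of all genes tested, and their median log2 fold change was 0.03 against 0.01. An interval within 2-fold was found for 56 of the 100, near the 61.0% of all genes tested. Which of them encode cellulases is not annotated.

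Genes whose libraries did not overlap between the strains were counted as a description. All 3 Δpph5 libraries lay above both parent libraries in 506 genes (5.68% of the genes tested) and below both in 528 (5.92%). Together these were 11.6% of the genes tested. If the strain labels were exchangeable among these libraries, a gene would be apart in either direction with a probability of 0.2. The count is thus no excess over what label order alone would give. The differences were mostly small, with a median log2 fold change of 0.47 in the genes above and -0.35 in the genes below. Between the nearest libraries of both strains the gap was at least 1.5-fold in 39 genes above and 22 below, and at least 2-fold in 14 genes in all, with 0.5 CPM added to each value. Of the genes above, 147 (29.1%) had a fitted fold change of at least 2-fold, and of the genes below 85 (16.1%), against 7.39% of all genes tested. The fold changes come from the same libraries that chose these genes, so shares above that of all genes follow from the choice. The genes above were less abundant, with a median of 18.3 CPM, than the genes below (33.6 CPM) or all genes tested (37.0 CPM). Values not corrected for gene length are compared here, and the median lengths were 1226, 1245 and 1251 bases.

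**Figure D3:**
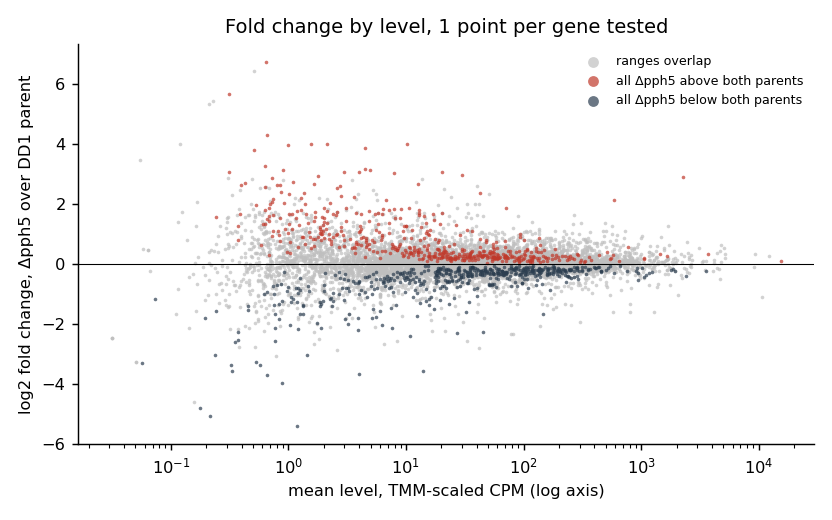
Log2 fold change of Δpph5 over its parent (vertical axis) against the mean level of both strains in TMM-scaled CPM (horizontal log axis), 1 point per gene tested except TrE1020W. Red points are the genes with all Δpph5 libraries above both parents, dark points those with all below, and grey points those whose ranges overlap, which cover much of the same height at low levels.

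These genes were spread over all identifier letters. The letter follows the prefix Tr in each systematic identifier, and the sources used here do not explain it. Letter F had the highest part above the parent, 76 of 879 genes (8.65%), and the lowest below, 39 (4.44%). Letter G had the lowest part above, 38 of 970 genes (3.92%), and 66 below (6.80%). The other letters ranged from 5.24 to 5.92% above. Where a gene lay above the parent, the gene with the next number did so in 6.43% of 420 cases, against 5.62% over all 7580 genes with a tested next number. For the genes below it was 7.69% of 442 cases, against 5.86%.

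The Δpph5-2 libraries and the DD3 parent, none of which entered the choice of these genes, were set beside them. Of the 506 genes above the parent in Δpph5, 156 (30.8%) also had all 4 Δpph5-2 libraries above both DD3 parents, against 12.6% of all genes tested, and 12 (2.37%) had all below, against 8.86%. Of the 528 genes below, 98 (18.6%) were also below in Δpph5-2 and 15 (2.84%) above. The 156 genes are 13.9% of those above in Δpph5-2, and the 98 genes 12.4% of those below. The median log2 fold change of Δpph5-2 over its own parent was 0.22 in the genes above, -0.09 in the genes below and 0.01 over all genes tested. Among the libraries tagged DD3 the mean score was lower in the deletion, at -13.1 ± 31.8 in Δpph5-2 (SD, n = 4) and 17.7 ± 38.7 in the DD3 parent (SD, n = 2). Parent libraries with the same number in DD1 and DD3 had correlations of 0.972 and 0.985 across genes, which are not independent, and the part of this likeness in the shared genes was not tested.

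With the library score added to the fit, 4 genes passed the threshold (0.0449% of the genes tested): TrE1020W and TrA1782W fell, and TrG0976W and TrE0449C rose. Apart from the candidate they are named because the count is small, after their values were seen, and TrE0531W, TrF0732W and TrB0109W are named by the rule for genes without overlap. None of these 6 genes is annotated in the files. The score narrowed the estimates: the standard error was smaller in 77.8% of genes, the median half-width of an interval was 1.35-fold, and 6184 genes (69.4%) had an interval within 2-fold. In the fifth of genes that followed the score most, 32.2% had such an interval. Before adjustment, 806 genes had a p under 0.05, 405 of them higher and 401 lower in Δpph5, and without parent replicate 1 there were 1342.

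TrG0976W was at 13.1, 5.79 and 7.68 CPM in Δpph5 replicates 1, 2 and 3, against 1.13 and 0.913 CPM in parent replicates 1 and 2. All 3 deletion libraries were above both parents, and the lowest of them rested on 28 counts against 9 counts in each parent. The log2 fold change was 3.12 (SE 0.45, 95% interval 2.14 to 4.10), with an adjusted p of 0.0615 by edgeR without the score and 0.0347 with it, where the log2 fold change was 3.16. The gene was also higher in the other deletion, at 9.47 ± 2.09 CPM in Δpph5-2 (SD, n = 4) against 1.83 ± 0.414 CPM in the DD3 parent (SD, n = 2), which did not pass the test (a log2 difference of 2.36 with an SE of 0.41, and an adjusted p of 0.168 by edgeR). The responses of the 2 deletions differed by 0.76 on the log2 scale, with an SE of 0.57 and an edgeR adjusted p of 0.886. In Δpp2A the gene ranged from 1.97 to 3.79 CPM.

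TrE0449C was at 35.4, 7.45 and 11.7 CPM in Δpph5 replicates 1, 2 and 3, against 3.28 and 9.94 CPM in parent replicates 1 and 2. Its ranges overlapped, since Δpph5 replicate 2 lay below parent replicate 2. Both strains had their higher level in the library with the low score, and edgeR gave a log2 fold change of 1.75 with the score in the fit, at an SE of 0.26 and an adjusted p of 0.0347, against 1.47 without it, at an SE of 0.65 and an adjusted p of 0.764. Without the score the log2 fold change was 0.54 without Δpph5 replicate 1, 0.89 without parent replicate 1 and 2.50 without parent replicate 2. In Δpph5-2 it was at 18.7 ± 8.34 CPM (SD, n = 4) and in the DD3 parent at 8.05 ± 1.73 CPM (SD, n = 2).

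TrA1782W was at 125, 106 and 105 CPM in Δpph5 replicates 1, 2 and 3, against 151 and 204 CPM in parent replicates 1 and 2. All deletion libraries lay below both parents, and in each strain the library with the low score was the highest. By edgeR the log2 fold change was -0.58 with the score, at an SE of 0.08 and an adjusted p of 0.0347, and -0.66 without it, at an SE of 0.15 and an adjusted p of 0.396. Both intervals lay within 2-fold, from -0.76 to -0.40 and from -0.98 to -0.34 on the log2 scale. Without parent replicate 2 the log2 fold change was -0.43 in the fit without the score.

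**Figure D4:**
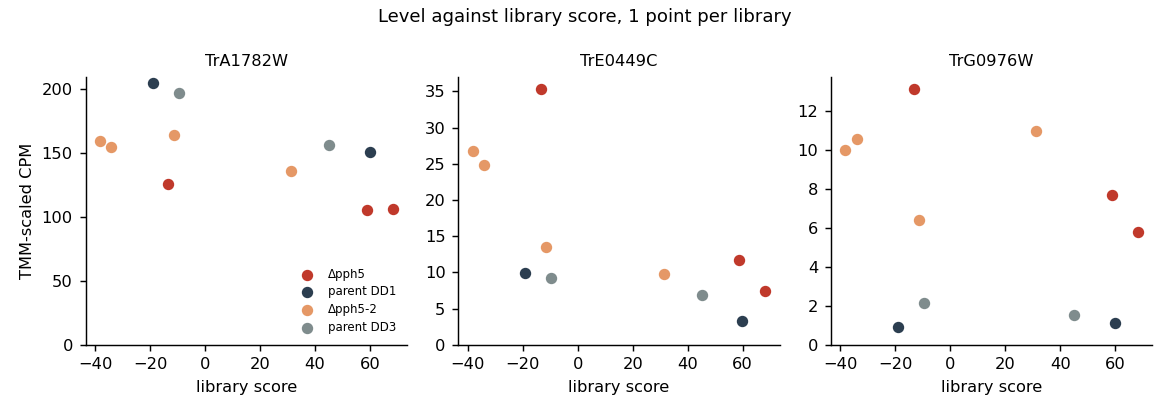
Level in TMM-scaled CPM (vertical axis) of the 3 genes called with the score besides TrE1020W, against the library score (horizontal axis), 1 point per library of Δpph5, its DD1 parent, Δpph5-2 and the DD3 parent. At like scores the Δpph5 points lie below the DD1 parent points for TrA1782W, and above them for TrE0449C and TrG0976W.

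These 3 calls depended on the settings. Each was lost without any 1 of Δpph5 replicates 1 and 3 and parent replicates 1 and 2, with adjusted p-values by edgeR from 0.0983 to 0.284, and without Δpph5 replicate 2 the fit called 13 genes, these 3 among them. With scaling by library size only, all 3 were at an adjusted p of 0.0541 by edgeR, and without the Δpp2A libraries at 0.169 to 0.265. TrE0449C was also lost with a surrogate variable in place of the score (0.0519) and with the axis taken from all 5 groups (0.0774), while DESeq2 called all 3 with the score, and TrA1782W and TrG0976W without it. The direction was the same in each of the 14 alternatives to the fit with the score.

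TrE0531W was at 65.1, 68.7 and 76.4 CPM in Δpph5 replicates 1, 2 and 3, against 52.8 and 44.0 CPM in parent replicates 1 and 2. The groups did not overlap, and the DD3 parents, at 48.2 and 42.7 CPM, were also below all 3. With a log2 fold change of 0.53 and an SE of 0.11 it did not pass the edgeR test, at an adjusted p of 0.396 without the score and 0.180 with it. DESeq2 called it, at an adjusted p of 0.00708 without the score and 0.00182 with it. In Δpph5-2 it was at 49.7 ± 0.974 CPM (SD, n = 4), and the responses of the 2 deletions differed by 0.41 on the log2 scale, with an SE of 0.15 and an edgeR adjusted p of 0.886.

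TrF0732W was at 65.7, 52.8 and 66.2 CPM in Δpph5 replicates 1, 2 and 3, against 32.9 and 37.3 CPM in parent replicates 1 and 2. All deletion libraries were above both parents, with a log2 fold change of 0.81 and an SE of 0.17, and edgeR gave an adjusted p of 0.396 without the score and 0.170 with it. DESeq2 called it, at an adjusted p of 0.00726 without the score and 0.00109 with it. The 4 Δpph5-2 libraries, at 45.1 to 68.7 CPM, were likewise above the DD3 parents at 38.1 and 38.6 CPM.

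TrB0109W was at 5.05, 6.83 and 5.39 CPM in Δpph5 replicates 1, 2 and 3, against 11.2 and 26.7 CPM in parent replicates 1 and 2. The deletion libraries lay close together below both parents, which were apart from each other. The log2 fold change was -1.73 with an SE of 0.37, and edgeR gave an adjusted p of 0.396 without the score and 0.229 with it. DESeq2 called it, at an adjusted p of 0.0111 without the score and 0.00727 with it. The log2 fold change without the score was -0.97 without parent replicate 2 and -2.23 without parent replicate 1. In Δpph5-2 the level was 10.7 ± 3.59 CPM (SD, n = 4) and in the DD3 parent 21.1 ± 0.259 CPM (SD, n = 2), and in Δpp2A it ranged from 30.0 to 48.1 CPM.

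**Figure D5:**
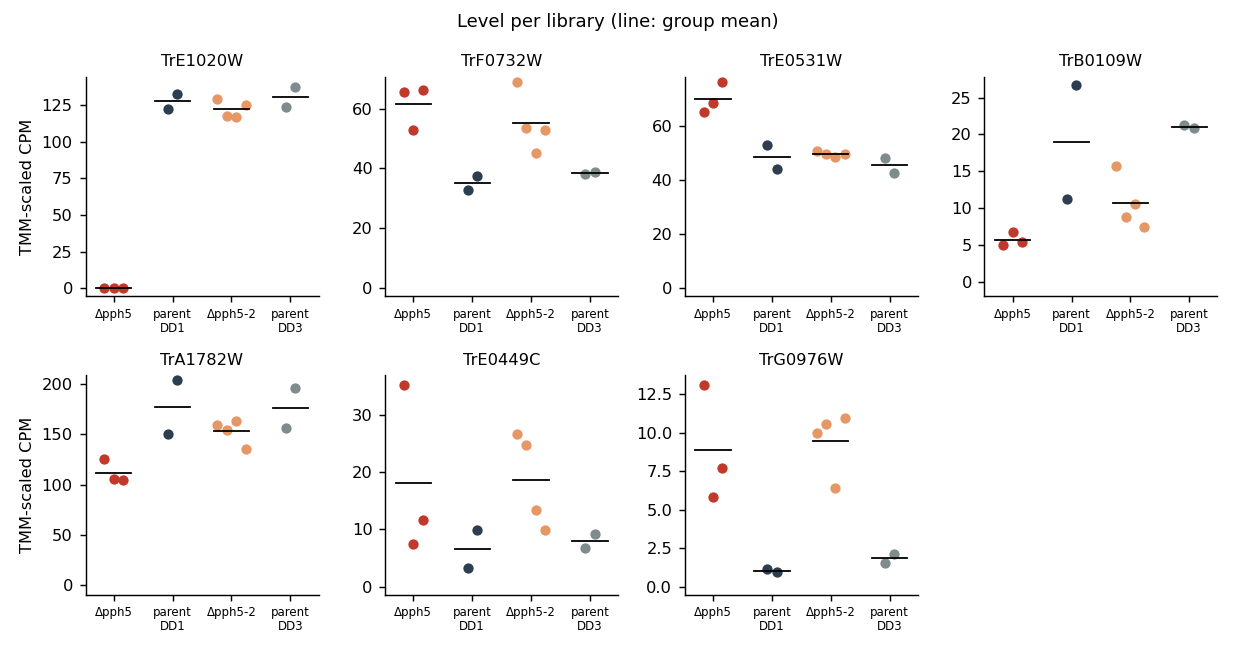
Level in TMM-scaled CPM (vertical axes, each starting at about 0) of the 7 named genes in Δpph5, its DD1 parent, Δpph5-2 and the DD3 parent (horizontal axes), 1 point per library and a line for the group mean. TrE1020W is at 0 in Δpph5 and at 117 to 137 CPM in the other groups shown, and the Δpph5 points lie apart from their parent for all genes but TrE0449C.

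When the fitted slope on the score was taken out of each gene, the non-overlapping genes numbered 1082 above and 1068 below the parent. These were 12.14% and 11.98% of the genes tested, against 5.68% and 5.92% before. The slope was fitted on these libraries as well as on the others. Such a fit tends to lower the spread within groups, so higher counts can follow from the fit itself. The 1082 and 1068 genes included 464 of the 506 genes above (91.7%) and 468 of the 528 genes below (88.6%). In all, 0 genes changed sides. These shares come from the same libraries and are not an independent result. Against both DD1 and both DD3 parents together, 321 of the 506 genes above (63.4%) and 304 of the 528 below (57.6%) were still apart from all 4 parent libraries. These 625 genes are 7.01% of the genes tested. All had been chosen as apart from the DD1 parents with the same Δpph5 libraries, so the shares kept are not an independent result.

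The same 3 Δpph5 libraries were also set against the DD3 parents alone, which differ from them in the tag as well as in pph5, a comparison added after seeing the data. There edgeR called 3 genes (0.0337%) without the score and 22 (0.247%) with it. With the score, TrE1020W (adjusted p = 9.87e-11), TrA1782W (0.0197), TrE0531W (0.0349) and TrG0976W (0.0422) were called by edgeR. TrE0449C (0.0525), TrB0109W (0.0664) and TrF0732W (0.0793) were not. An alternative added after seeing the data merged the DD1 and DD3 parents, with the score in the fit. There edgeR called 39 of 8760 genes, TrE1020W among them. The other named genes were all called too. These were TrA1782W and TrG0976W (adjusted p = 0.0122 each by edgeR), TrE0531W (0.0209), TrE0449C and TrF0732W (0.0247 each) and TrB0109W (0.0387). The comparisons with the DD1 and DD3 parents share the Δpph5 libraries, so they are not independent of each other.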

How the data were processed

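The authors deposited a table of read counts by gene that were not normalised, with a column for each of 15 libraries. Ribosomal RNA was depleted and the library kit keeps strand, per the labels' protocols. The submitters' processing notes name HISAT2 2.2.1. The name of the deposited table points to featureCounts. Its settings, the use of strand, the build and the annotation are not stated in the sources used here. Reads of overlapping or antisense genes and of near-identical copies may thus be split between genes. The deposited table also gives a length per gene, of which 94.7% are multiples of 3. Each column was assigned through the label that carries its name.

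The test was edgeR 4.0.16 (R 4.3.3) on these counts, with filterByExpr over the 5 groups, TMM scaling, a robust quasi-likelihood fit of 1 mean per group over all 15 libraries, and Benjamini-Hochberg adjustment over 8912 genes, with calls under 0.05. Genes left out held at most 0.0296% of a library's counts. The 95% intervals use a standard error of |log2 fold change|/√F and the t distribution with the fitted degrees of freedom. The library score projects log2 CPM (prior count 2) on the first singular vector of deviations from group means in Δpph5-2, the DD3 parent and Δpp2A, which held 40.1% of their sum of squares, and entered the second fit as a covariate. Genes were named as follows: the candidate for the deleted gene, then, for want of gene names, up to 2 per direction (the candidate taking a lower place) with no overlap of libraries, at least 10 CPM in the higher group and the smallest p. Alternatives used DESeq2 1.42.0, limma 3.58.1 (voom) and sva 3.50.0, other scalings and filters, and leaving out libraries. The fits were tried on counts simulated from the fit with the score, which cannot show how they behave under replicate differences outside that fit. The comparison, lists and tests were chosen with earlier results of these data known. The floor of 3 counts allows for counting error alone, because without molecular identifiers reads may be copies of 1 molecule. The gene lists planned for cellulases, regulators, chaperones, transporters and conidiation could not be applied without gene names, nor could the marker lists.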

Additional observations from a re-analysis of the deposited data

Results flagged for a closer look

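TrE1020W stood out in the test of whether the responses of Δpph5 and Δpph5-2, each against its own parent, differ (adjusted p = 7.84e-10 by edgeR's quasi-likelihood test of the difference). It had 0 counts in the 3 Δpph5 libraries, while Δpph5-2 held 124 ± 10.1 CPM of the library total (SD, n = 4). The test called 2 genes in all. The other, TrE0027W (adjusted p = 1.04e-05 by edgeR), was chosen after its values were seen. It had 111, 84 and 108 counts in Δpph5 replicates 1, 2 and 3, and 167 and 228 counts in DD1 parent replicates 1 and 2. In Δpph5-2 it had 0 counts in all 4 libraries, against 166 and 204 counts in DD3 parent replicates 1 and 2. None of the 6 genes named in the comparison besides TrE1020W passed this test. The groups of 3 and 2 libraries are too small for a search for single distant libraries.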

How the results depend on the processing

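Against 1 gene called by edgeR, the count was 26 with DESeq2, 4 with DD1 and DD3 parents merged, 4 with the library score, 4 with a surrogate variable and 3 against the DD3 parents, the last added after seeing the data. It was 1 to 6 when single libraries were left out. With only the 5 libraries in the fit, 0 genes were called by edgeR, 131 had an unadjusted p under 0.05 (424.1 by uniform p-values), and TrE1020W had an adjusted p of 0.354 although all Δpph5 counts were 0. The number of genes within 2-fold stayed within 1.5 times in each alternative that gives one, which DESeq2 was not used for. As a share of the genes tested in each fit, it was 61.0% in the main fit. That share was lower with only the 5 libraries (49.8%) and with voom (48.4%).

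Against 4 genes called with the score, the count was 1 with scaling by library size only, 66 with DESeq2 and 1 to 13 when single libraries were left out. Added after seeing the data, it was 39 with DD1 and DD3 parents merged, 22 with the DD3 parents in place of the DD1 parents, and 1 without the Δpp2A libraries. Same-numbered Δpph5 and parent libraries deviated in opposite ways from their group means (r = -0.725 and -0.555 across genes). The deviations of 2 parent libraries mirror each other, so these 2 values are not independent. They cannot show whether same-numbered libraries share a culture or a day. A replicate block left 1 gene called, with the score and without it.

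Against 1034 genes without overlap, the count was 625 against all 4 parents, 2150 with the score slope removed, and 1500 to 4820 when 1 library was left out, which raises it by construction. Removing a slope that was fitted on these libraries can raise the count too. The share of counts in the 100 most abundant genes, Δpph5 minus parent, was -0.312 percentage points, and -0.589 with 10 genes, -0.223 with 500 and -1.14 when ranked on the DD3 parents, with exact permutation p-values of 0.4 to 1. Few reads limit what can be said under 10 CPM, and 2 parent libraries limit every estimate of spread.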

Other observations

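Genes silent in 1 strain were few apart from TrE1020W. In 47 of 10879 genes all Δpph5 libraries had 0 counts while both parents had at least 1 count, and in 15 genes the reverse held. These numbers do not compare the strains, since the groups differ in size and Δpph5 replicate 2 had the lowest total (6026511 counts). With at least 10 counts in each library of the other strain, TrE1020W alone was at 0 in Δpph5, and 0 genes were at 0 in the parent.

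Among the genes numbered next to TrE1020W, the one before it was at 58.9 CPM of the library total in Δpph5 and 43.3 in the parent, with no overlap of libraries and a log2 fold change of 0.49 (SE 0.14, edgeR adjusted p of 0.561). The one after it was nearly silent in both strains and was not tested. The other 4 within 3 numbers had log2 fold changes from -0.19 to 0.44, and their libraries overlapped. The sources used here do not say whether numbers follow the order on a chromosome.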
